A study of Homo sapiens with 8 samples.

Results

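Histone genes were examined as 1 group of transcripts in poly(A)-selected RNA of HSC-5 cells, a line derived from a human cutaneous squamous cell carcinoma. The members were chosen by gene symbol: linker histone genes named H1 with a number, the H2A, H2B, H3 and H4 cluster genes, the H2A variants H2AX, H2AZ1, H2AZ2 and H2AJ, both macroH2A genes, and H3-3A and H3-3B. This gave 77 of the 20294 genes in the count table. Of these, 65 were classed as replication-dependent cluster genes and 12 as polyadenylated variant genes, among them H2AX, whose transcript also holds a stem-loop. Other histone genes whose symbols fall just outside these patterns, H4-16, H3-2, H2AW and H2BU1, had 72, 149, 549 and 109 counts over all libraries and were not included.

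The cells stably expressed Cas9 from a lentivirus and then took up either the vector alone (control) or the vector with a guide RNA that directs Cas9 to EZH2, sgEZH2-1 or sgEZH2-2, under G418 selection. All groups therefore carry Cas9. They were grown in medium with serum, with no other treatment named. There were 2 control libraries and 3 libraries of each guide; per the design text, another control was left out by the submitters because it clustered apart. Whether the libraries of a group are separate cultures is not in the labels, and their spread, on which every p-value rests, may be technical. Each guide was set against the same 2 controls.

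A nucleosome is DNA wound around a core of the histones H2A, H2B, H3 and H4, with a linker histone H1 where the DNA enters and leaves. Most histone protein is made in S phase from clustered genes whose mRNAs end in a short stem-loop, bound by the protein SLBP, in place of a poly(A) tail. Most variant histones are made throughout the cell cycle from ordinary polyadenylated mRNAs and replace the S phase forms at chosen places in chromatin. EZH2 is the enzyme of the Polycomb repressive complex that methylates a lysine of histone H3.

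Libraries held between 12607952 and 15468597 counts. EZH2 mRNA stood at 82.7 and 84.1 CPM (counts divided by TMM-scaled library sizes) in the controls, at 56.4, 56.3 and 48.0 CPM with sgEZH2-1 and at 73.9, 67.6 and 65.1 CPM with sgEZH2-2, so every guide library was below both controls. Since Cas9 edits DNA, the mRNA level is no measure of EZH2 protein. All 12 keratinocyte markers checked were measured, with a summed level between 3932 and 4546 CPM. Summed fibroblast markers, mostly COL1A1, were highest with sgEZH2-2, at 11.2 CPM or more against at most 9.03 CPM elsewhere. Summed leukocyte markers reached 11.7 to 18.5 CPM, with 4 of 9 at 0 in every library, and summed melanocyte markers 27.9 to 33.1 CPM, with 3 of 7 at 0. Most of the leukocyte sum came from CD68, at 9.36 to 15.1 CPM, and most of the melanocyte sum from MITF, at 24.5 to 30.6 CPM. Summed endothelial markers were at 177 and 184 CPM in controls, 76.6 to 81.7 with sgEZH2-1 and 143 to 160 with sgEZH2-2, nearly all from CDH5. The part of these markers in the histone results was not tested.

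The stem-loop by which replication-dependent mRNAs are known is shown here for members on which the results turn. Transcripts of GENCODE 29 (GRCh38) were searched on the sense strand for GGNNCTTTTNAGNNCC, a pattern with both stem arms and the loop. It was found in 26 of 65 replication-dependent genes, in 1 of 12 variants and in 33 of 19845 other protein-coding genes (0.166%). Of the replication-dependent gene models, 32 hold coding sequence alone and cannot show it; among the 33 models with a UTR, 26 had it. The stem-loop is given in capitals with 5 flanking bases on each side, 5′ to 3′ on the transcript.
H2AC6: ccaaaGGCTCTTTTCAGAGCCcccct
H2BC21: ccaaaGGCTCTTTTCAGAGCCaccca
H2BC5: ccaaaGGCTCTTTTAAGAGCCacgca
H4C14: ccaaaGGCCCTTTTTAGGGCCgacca
H4C15: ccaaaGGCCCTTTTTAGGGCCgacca
H2AX: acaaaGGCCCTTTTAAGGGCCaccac
These lie at chr6:26124669-26124684 (plus strand), chr1:149886188-149886203 (minus), chr6:26158587-26158602 (plus), chr1:149833032-149833047 (plus), chr1:149860769-149860784 (minus) and chr11:119094898-119094913 (minus). All 7 H4 genes with a match had a stem of GGCCC and GGGCC, whereas the H2A, H2B and H3 genes had GGCTC paired with GAGCC, apart from H2AC11. H2AX, the variant that marks DNA breaks once phosphorylated, shared the H4 form of the stem. The H4C14 and H4C15 stretches are the same over all the bases shown.

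Transcript models differed in how far they ran past this site. The annotated H2AC6 transcript went on for 1128 bases after the stem-loop and that of H2BC21 for 1729 bases. That of H4C14 went on for 1167 and that of H2AX for 1044. The H2BC5 transcript that holds the stem-loop went on for 39 bases and that of H2AC8 for 51. The longer of the 2 annotated H2BC5 transcripts, at 789 bases, does not hold the stem-loop. The polyadenylation signal AATAAA lay within the last 50 bases of a transcript in 20 of the 65 replication-dependent genes and in 7 of the 12 variants. The 32 replication-dependent models with coding sequence alone lack a 3′ UTR that could show it. Among models with a UTR it was in 20 of 33 replication-dependent genes (60.6%) and in 7 of 12 variants (58.3%).

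Promoters also set the families apart. RefSeq windows of 250 bases before to 50 after the start (GRCh38.p14) were searched on both strands for the octamer ATTTGCAT, for CCAAT and for TATAAA, which do not overlap as patterns. The octamer was in 73.3% of replication-dependent H2A windows and 78.9% of H2B windows, in none of the 6 H1 or 12 H4 windows, and in 1.77% of all 35116 windows of the table. CCAAT was in 85.9% of replication-dependent windows against 34.6% of all windows, with H4 at 25%. TATAAA was in 67.2% against 11.5%. The stretch from octamer to TATAAA is shown for H2BC12 and H2BC21, 2 of the more abundant cluster genes, and for H3-3B, whose window was the only variant window with an octamer; capitals mark the octamer, on either strand, and TATAAA.
H2BC12: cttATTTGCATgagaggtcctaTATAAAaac
H2BC21: ctaATTTGCATaaggtggtTATAAAaga
H3-3B: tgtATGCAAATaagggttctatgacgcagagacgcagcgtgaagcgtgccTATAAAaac
They lie at chr6:27146877-27146907, chr1:149886704-149886731 and chr17:75779800-75779858, all on the minus strand. The octamer and TATAAA are 11 and 8 bases apart in the H2B promoters and 39 bases apart, with the octamer reversed, in that of H3-3B. A match describes the sequence and is no measure of binding.

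Variants held nearly all histone counts in these libraries. Replication-dependent genes summed to 1194 and 1253 counts in the controls, 1173, 1234 and 1238 with sgEZH2-1, and 1508, 1273 and 1173 with sgEZH2-2. The 12 variants summed to 36270 and 39670, to 35003, 38885 and 39344, and to 38937, 35347 and 35660 counts in the same order. All histone genes together took 0.262% to 0.290% of each library. Replication-dependent genes made up 3.19% (95% Wilson interval 3.01% to 3.37%) and 3.06% (2.90% to 3.23%) of histone counts in the controls. Their share was 3.24%, 3.08% and 3.05% with sgEZH2-1 and 3.73%, 3.48% and 3.18% with sgEZH2-2, where the interval of library 1 (3.55% to 3.92%) lay above those of both controls and that of library 3 (3.01% to 3.37%) overlapped them. These intervals cover counting error only.

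Per kilobase of the longest annotated protein-coding transcript, the median control level was 91.0 CPM per kb for the 12 variants and 0.268 CPM per kb for the 65 replication-dependent genes. On this scale, which depends on the transcript model, H2AZ1 was the highest histone gene at 384 CPM per kb, followed by H3-3B at 208 and H3-3A at 199. By counts over all libraries H3-3B was the highest, with 22.8% of variant counts against 14.5% for H2AZ1. In controls, 9 of 12 variants exceeded the highest replication-dependent gene, H2BC12, at 24.7 CPM per kb. The exceptions were MACROH2A2, at 0.292 CPM per kb, and the germ cell linker histone genes H1-7 and H1-8, which had no count in any library. Over all libraries, 3 counts, the most that a count of 0 allows, correspond to 0.0269 CPM.

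**Figure D1:**
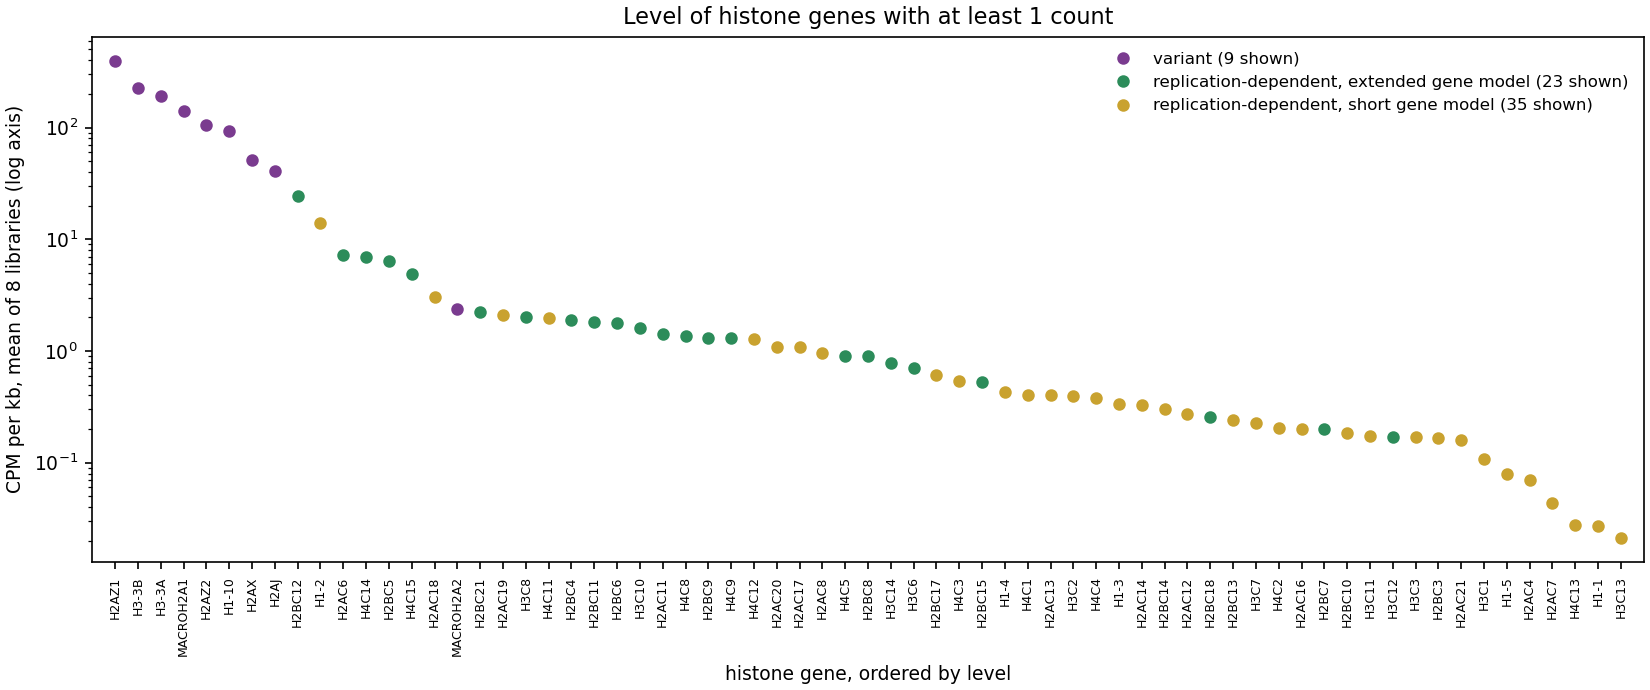
Level of histone genes with at least 1 count, as the mean CPM per kb over 8 libraries on a log axis, ordered from highest to lowest and coloured by class and gene model. All variants shown except MACROH2A2 lie above every replication-dependent gene, and genes with a short model fill most of the low end.

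Within the replication-dependent class a few genes carried most of the signal. The median gene had 26 counts over all 8 libraries, 7 genes had none (H1-6, H2AC1, H2AC15, H2BC1, H3C4, H4C6 and H4C7), and 28 had between 1 and 30. H3C4 shares every stretch of 50 bases with the annotated gene AL031777.3, so its lack of counts does not show that it was silent. H2AC6 had 1323 counts, H2BC12 had 1041 and H1-2 had 1000, and these are 13.2%, 10.4% and 9.95% of the class. The 6 cluster genes known for polyadenylated transcripts (H1-2, H2AC6, H2BC4, H2BC5, H2BC12 and H2BC21) together gave 45.9%. The model of H2BC12 in GENCODE 29 is a coding sequence of 381 bases, and its gene spans 8566 bases in RefSeq, so its level per kb depends on the model; 74.1% of its stretches of 50 bases also occur in other annotated genes.

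Gene models were split, after the values had been seen, by whether the gene spans at least 1000 bases in GENCODE 29 or RefSeq. The 24 replication-dependent genes with such an extended model had a median of 217 counts and gave 81.0% of the class's counts; 20 of them had at least 100 counts. The other 41, with short models, had a median of 10 counts, and 3 of them (H1-2, H2AC18 and H2AC19) had at least 100. These counts are not scaled for length. Per kb of transcript, over all libraries, the medians were 1.38 CPM for extended and 0.225 CPM for short models. In bulk RNA, fewer cells in S phase and less mRNA per cell cannot be told apart, nor can tail-less mRNA that escaped selection be told from a minor polyadenylated form.

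**Figure D2:**
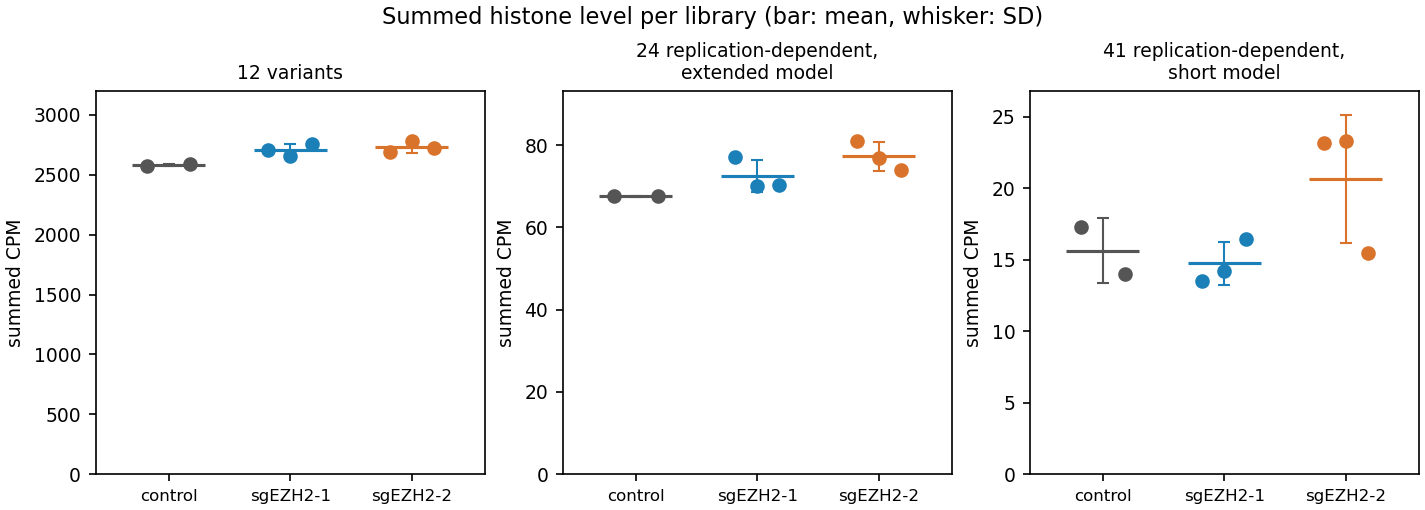
Summed CPM per library of the 12 variants, the 24 replication-dependent genes with an extended model and the 41 with a short model, in control, sgEZH2-1 and sgEZH2-2 libraries; points are libraries, bars means and whiskers SD. In the short-model panel 2 of 3 sgEZH2-2 libraries, at 23.1 and 23.3 CPM, lie above the control libraries at 17.3 and 14.02 CPM, and the other, at 15.48 CPM, lies between them.

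Summed levels of the groups lay close together. The replication-dependent sum was 83.3 ± 2.19 CPM in controls (SD, n = 2), 87.2 ± 3.13 CPM with sgEZH2-1 (n = 3) and 97.9 ± 7.57 CPM with sgEZH2-2 (n = 3), which are log2 ratios to control of 0.07 and 0.23. All 3 sgEZH2-2 libraries, at 104, 100 and 89.5 CPM, were above both controls at 84.8 and 81.7 CPM, and the sgEZH2-1 libraries overlapped them. The variant sum was 2581 ± 7.71 CPM in controls, 2706 ± 47.5 with sgEZH2-1 and 2729 ± 47.0 with sgEZH2-2, with log2 ratios of 0.07 and 0.08, and every guide library was above both controls. As scores over chosen genes these sums were given no test.

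By family, replication-dependent H2A genes summed to 17.0 ± 1.67 CPM in controls, 20.1 ± 2.12 with sgEZH2-1 and 21.5 ± 2.00 with sgEZH2-2. H2B genes, the largest share of the class, stood at 32.9 ± 1.22, 32.6 ± 0.948 and 37.4 ± 1.60 CPM, and the sgEZH2-2 libraries lay above all others. H3 genes stood at 9.66 ± 0.811, 11.7 ± 1.07 and 10.1 ± 0.683 CPM, with the sgEZH2-1 libraries above the controls. H4 genes stood at 14.8 ± 2.09, 14.4 ± 1.96 and 17.6 ± 1.29 CPM, and H1 genes of the cluster at 8.85 ± 1.35, 8.35 ± 0.605 and 11.4 ± 2.57 CPM.

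The short-model genes without H1-2, a set chosen after its values were seen, had their highest sums in sgEZH2-2 libraries 1 and 2. They had 110 and 99 counts in the controls, 81, 96 and 109 with sgEZH2-1, and 180, 137 and 98 with sgEZH2-2. The linker histone gene H1-3 had 12 of its 25 counts in sgEZH2-2 library 1, H1-4 had 12 of 36 there and H4C1 had 9 of 14. That library also had the lowest summed level of the 13 mitochondrial mRNAs, 11070 CPM, against 15005 to 17158 CPM in the other 7. Its part in the histone counts was not tested.

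Changes of single genes were tested with edgeR's quasi-likelihood test on all 13124 genes with sufficient counts, with Benjamini-Hochberg adjustment and a threshold of 0.05; 28 replication-dependent genes and 10 variants were among them. With sgEZH2-1 against control, 4 of 38 tested histone genes passed, 3 higher and 1 lower, where 20.8% of all genes passed, 11.3% higher and 9.51% lower. With sgEZH2-2, 2 passed, both higher, where 8.68% of all genes did, 6.18% higher and 2.5% lower. With both guides pooled, 1 passed, higher, where 4.36% of all genes did, 3.76% higher and 0.594% lower. Between the guides, 5 passed, 1 higher and 4 lower with sgEZH2-1, where 21.9% of all genes did, 10.4% higher and 11.5% lower. The median log2 change of the 28 replication-dependent genes was 0.13 with sgEZH2-1 and 0.30 with sgEZH2-2, that of the 10 variants was -0.01 and 0.09, and that of all genes -0.01 and 0.00.

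MACROH2A2 had the largest change against control among the tested histone genes, with either guide. It encodes a macroH2A, an H2A with a large extra domain that is known from silent chromatin such as the inactive X chromosome. It had 8 and 9 counts in the controls, 97, 93 and 81 with sgEZH2-1, and 92, 63 and 79 with sgEZH2-2, so the groups of guide libraries stood well clear of the controls. Both control counts are under the filter's minimum count of 10, so the gene entered the test through its guide libraries. The size of its change rests on this low control level. In CPM this was 0.578 ± 0.0132 in controls (n = 2), 6.51 ± 0.919 with sgEZH2-1 (n = 3) and 5.78 ± 0.730 with sgEZH2-2 (n = 3). The log2 change was 3.47 (SE 0.257, edgeR adjusted p = 1.47e-05) with sgEZH2-1, 3.30 (SE 0.260, edgeR adjusted p = 4.6e-05) with sgEZH2-2 and 3.39 (edgeR adjusted p = 0.000115) with both pooled. By DESeq2 the SE was larger, 0.428 with sgEZH2-1 and 0.429 with sgEZH2-2. The guides did not differ detectably (log2 difference 0.17, SE 0.156, edgeR adjusted p = 0.473). The gene lies at chr10:70052796-70112280 on the plus strand.

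Its paralogue MACROH2A1 was the more abundant gene and did not pass in any comparison. It stood at 399 and 395 CPM in controls, at 397, 385 and 387 with sgEZH2-1 and at 391, 402 and 393 with sgEZH2-2, and the groups overlapped. The log2 change was -0.03 (SE 0.0428) with sgEZH2-1 and -0.01 (SE 0.0429) with sgEZH2-2.

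H3-3B and H3-3A encode the same replacement H3 protein, which is placed in chromatin outside replication. H3-3B stood at 554 and 570 CPM in controls, 641, 645 and 670 with sgEZH2-1, and 590, 616 and 609 with sgEZH2-2. Its log2 change of 0.21 with sgEZH2-1 passed (SE 0.0449, edgeR adjusted p = 0.00765), and that of 0.11 with sgEZH2-2 did not (edgeR adjusted p = 0.184); the difference between the guides did not pass either (0.11, edgeR adjusted p = 0.0809). Without control library 1 the sgEZH2-1 call was lost (log2 change 0.20, edgeR adjusted p = 0.0623). H3-3A stood at 371 ± 17.98, 355 ± 20.3 and 354 ± 3.22 CPM, and did not pass in any comparison.

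The H2A.Z genes, whose products are found at promoters, did not pass in any comparison. H2AZ1 stood at 375 and 377 CPM in controls, at 423, 408 and 395 with sgEZH2-1 and at 401, 354 and 381 with sgEZH2-2; its log2 change with sgEZH2-1 was 0.12 (SE 0.0583, edgeR adjusted p = 0.174). H2AZ2 stood at 412 ± 21.6, 413 ± 13.0 and 392 ± 8.63 CPM.

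**Figure D3:**
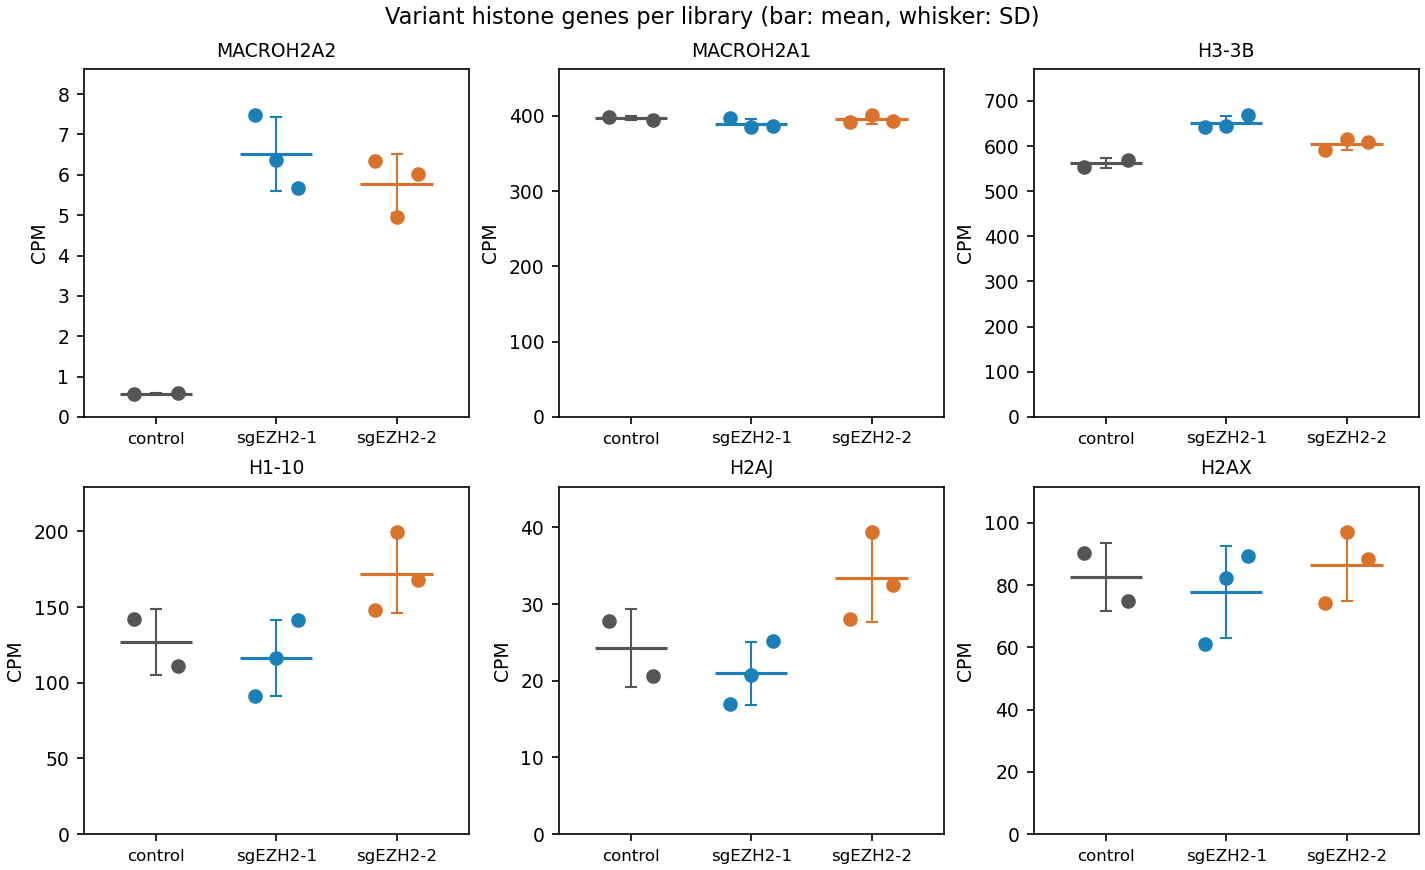
CPM of MACROH2A2, MACROH2A1, H3-3B, H1-10, H2AJ and H2AX in each library by group; points are libraries, bars means and whiskers SD. MACROH2A2 is at 0.568 and 0.587 CPM in the controls and at 4.96 CPM or more in every guide library, and H1-10 and H2AJ are lower with sgEZH2-1 than with sgEZH2-2.

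H1-10, H2AJ and H2AX varied within groups as well as between them. H1-10, a linker histone gene outside the clusters, stood at 142 and 111 CPM in controls, at 91.1, 117 and 142 with sgEZH2-1, and at 148, 200 and 168 with sgEZH2-2. The guides differed by -0.56 (log2, SE 0.158, edgeR adjusted p = 0.0293), and neither guide passed against control. H2AJ, an H2A variant gene of mammals, stood at 27.8 and 20.7 CPM, at 16.9, 20.8 and 25.1, and at 28.1, 39.4 and 32.5 CPM, with a difference between the guides of -0.66 (SE 0.167, edgeR adjusted p = 0.0189). Without sgEZH2-1 library 2, sgEZH2-2 library 2 or sgEZH2-2 library 3, neither difference passed (edgeR adjusted p = 0.0763, 0.116 and 0.0769 for H1-10 and 0.0571, 0.0777 and 0.0566 for H2AJ), and without sgEZH2-1 library 1 that of H1-10 did not (-0.41, edgeR adjusted p = 0.0580). H2AX stood at 90.3 and 74.8 CPM, at 61.1, 82.4 and 89.5, and at 74.2, 97.1 and 88.4 CPM, and its groups overlapped.

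The base composition of genes with their lowest and highest value in a library is given for sgEZH2-1 library 1 and sgEZH2-2 library 2, which were chosen after the values were seen. In sgEZH2-1 library 1, 6 of the 38 tested histone genes had their lowest CPM of all 8 libraries: H1-10, H2AJ, H2AX, H1-2, H2BC12 and H2BC9. This is 15.8% of them, against 20.4% of all tested genes. Their transcripts had a median GC content of 62.0%. In the same library 11 genes had their highest CPM, among them H2AC6, H3C8, H2BC21, H2AZ1 and H2AZ2, with a median GC content of 48.0%. In sgEZH2-2 library 2, 15 genes had their highest CPM, with a median of 61.2% GC, and 3 had their lowest, with a median of 46.6%. In the other 6 libraries the median GC content ran from 41.3% to 55.6% for genes lowest there and from 41.01% to 59.5% for genes highest there, in some of them over 1 or 2 genes. Over all tested genes, sgEZH2-1 library 1 was the highest for 16.4% and sgEZH2-2 library 2 for 15.3%, against 28.9% and 39.5% of the histone genes. Control libraries 1 and 2 were the lowest for 17.6% and 9.97% of all tested genes, against 26.3% and 23.7% of the histone genes. Where libraries tied, the first in column order was taken. The part of GC content in these differences was not tested.

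Among replication-dependent genes, the calls fell on 1 near-identical pair. H4C14 had 116 and 15 counts in the controls, 16, 3 and 11 with sgEZH2-1, and 114, 95 and 77 with sgEZH2-2. H4C15, its near-identical copy in the same cluster on chromosome 1, had 44 and 113, then 125, 132 and 105, then 27, 15 and 56 counts. Where H4C14 had 77 counts or more, H4C15 had at most 56, and in the other libraries H4C15 had at least 105. Their sums, 160 and 128, 141, 135 and 116, and 141, 110 and 133 counts, overlapped between groups. Taken singly, H4C14 was lower with sgEZH2-1 than in controls (log2 change -2.64, SE 0.781, edgeR adjusted p = 0.0374), and the guides differed by -3.28 for H4C14 (edgeR adjusted p = 0.00869) and by 1.83 for H4C15 (edgeR adjusted p = 0.00972). Without control library 1 the H4C14 change with sgEZH2-1 was -0.43 (edgeR adjusted p = 0.754), and by DESeq2 it missed the threshold (adjusted p = 0.0544). It also missed it without sgEZH2-1 library 2 or 3 or sgEZH2-2 library 2 or 3, with edgeR adjusted p between 0.0518 and 0.113. Of the stretches of 50 bases in H4C14, 97.5% also occur in H4C15, so reads could be split between them by the counting, and these calls are uncertain. With the pair added up before the fit, a choice made after seeing the data, the log2 change was -0.07 with sgEZH2-1 (edgeR adjusted p = 0.823) and the guides differed by -0.02 (edgeR adjusted p = 0.943).

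In the other pairs 1 copy held all or most of the counts in each library. In 7 of 8 libraries 1 of H2AC18 and H2AC19 was at 0 while the other held up to 53 counts, and the pair summed to between 25 and 53 counts. In all 8 libraries 1 of H4C11 and H4C12 was at 0, and the pair summed to between 8 and 24 counts. Neither pair passed in any of the 4 comparisons when added up. H3C14 shares every stretch of 50 bases with the gene HIST2H3A, which was not analysed here. H3C4 and H2AC7 share 100% and 98.0% of theirs with AL031777.3, also not analysed.

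**Figure D4:**
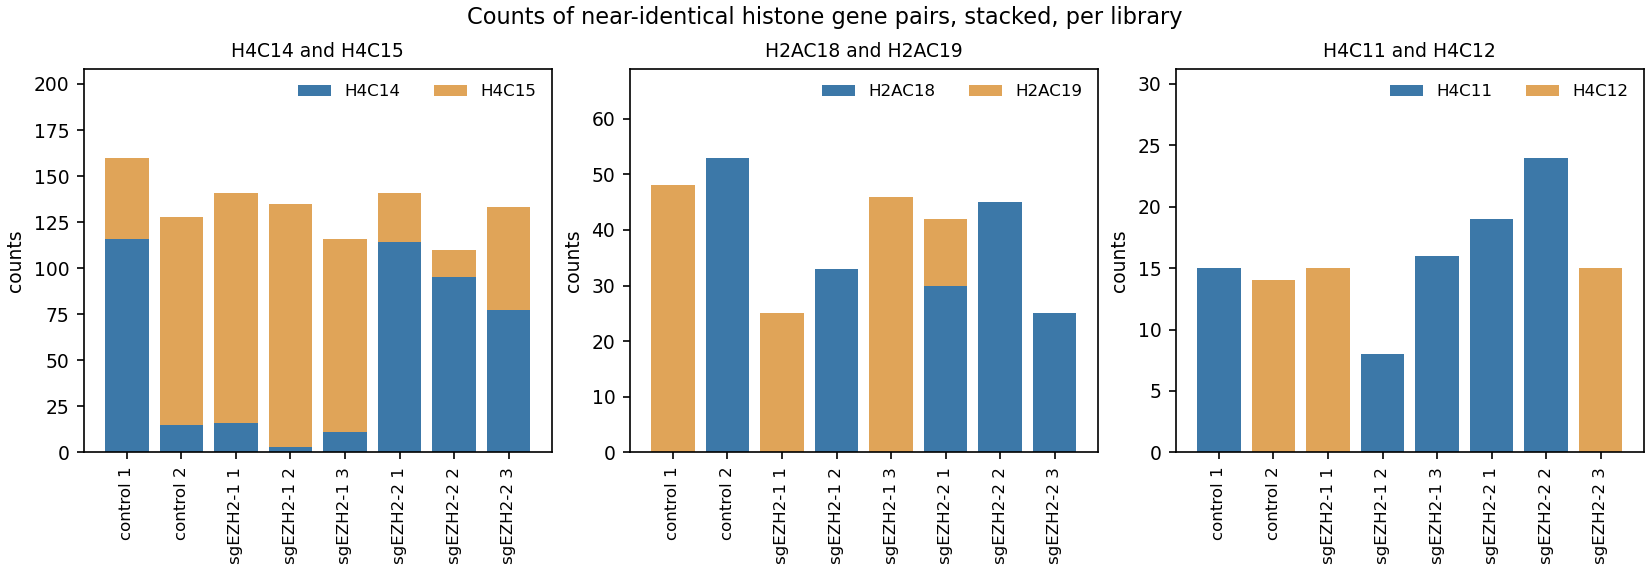
Counts of H4C14 and H4C15, of H2AC18 and H2AC19, and of H4C11 and H4C12 in each library, stacked. The stacked total of H4C14 and H4C15 stays between 110 and 160 counts while the share of H4C14 runs from 3 counts in sgEZH2-1 library 2 to 116 in control library 1.

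Apart from that pair, no replication-dependent gene passed in any comparison. By edgeR 0 of 28 passed with sgEZH2-2 and 0 with both guides pooled; at an unadjusted p below 0.05 there were 4 and 1 (22.6% and 15.9% of all genes), and DESeq2 called 0 and 0. H2AC6, an H2A gene with polyadenylated forms, stood at 8.10 and 11.02 CPM in controls, 14.9, 10.47 and 13.1 with sgEZH2-1 and 13.7, 12.04 and 11.9 with sgEZH2-2; its log2 change was 0.42 (SE 0.174, edgeR adjusted p = 0.119) and 0.39 (SE 0.175, edgeR adjusted p = 0.220). H2BC12 stood at 10.4 and 8.48 CPM, at 7.11, 9.03 and 8.47, and at 9.94, 11.2 and 10.2 CPM, so that the guides did not overlap with each other but both overlapped with control. H1-2, a linker histone of the cluster, stood at 9.45 and 7.56 CPM, at 7.26, 7.66 and 8.82, and at 10.7, 12.5 and 8.01 CPM, and all groups overlapped.

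H2BC5 stood at 4.38 ± 0.265 CPM in controls, 4.97 ± 0.669 with sgEZH2-1 and 5.64 ± 0.639 with sgEZH2-2. H2BC21 stood at 4.69 ± 0.198, 5.09 ± 0.613 and 4.76 ± 0.128 CPM. H2BC4 stood at 1.25 ± 0.165, 1.13 ± 0.0969 and 1.39 ± 0.147 CPM. Of the 6, none passed in any comparison by edgeR or DESeq2; at an unadjusted p below 0.05 H2AC6 did against control with each guide and with both pooled, and H1-2 and H2BC12 did between the guides.

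Histone genes whose groups did not overlap are given beside the share of all genes. For sgEZH2-1 against control 6 of the 38 tested histone genes did not overlap, 4 above and 2 below, against 48% of all genes, 23.7% above and 24.2% below. For sgEZH2-2 it was 12 of 38, against 39.7%, with 11 above and 1 below, where 19.3% of all genes were above and 20.5% below. The 6 replication-dependent genes above control there were H2AC6, H2AC17, H2BC5, H2BC6, H3C10 and H4C9. For all 6 guide libraries it was 3 of 38, all above, against 19.9%, with 10.2% above and 9.77% below. MACROH2A2 and H3-3B were among them.

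The machinery around histone mRNA was described by gene lists. Of 20 genes of histone mRNA production and processing, all were tested. With sgEZH2-1 1 was higher and 1 lower, against 11.3% and 9.51% of all genes. ERI1, an exonuclease that trims the stem-loop end, rose from 15.7 and 17.0 CPM to 20.4, 19.2 and 22.8 CPM (log2 change 0.35, edgeR adjusted p = 0.0373). MIF4GD, a partner of SLBP in translation, fell from 21.6 and 23.7 CPM to 16.5, 15.6 and 15.1 CPM (log2 change -0.53, edgeR adjusted p = 0.0051). DESeq2 called 0 higher and 1 lower with sgEZH2-1, so the ERI1 call was not made by that tool. With sgEZH2-2 edgeR and DESeq2 called 0, where 8.68% of all genes passed by edgeR. At an unadjusted edgeR p below 0.05 there were 3, all lower (22.6% of all genes in either direction).

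Of 27 histone chaperones tested, 3 were higher and 5 lower with sgEZH2-1, against 11.3% and 9.51% of all genes. ASF1B, which hands H3 and H4 to the replication machinery, stood at 119 and 109 CPM in controls and at 92.1, 95.3 and 97.2 with sgEZH2-1 (log2 change -0.27, edgeR adjusted p = 0.0110). CABIN1, of the complex that deposits replacement H3, fell by 0.31 on the log2 scale (edgeR adjusted p = 0.00946), and SET, an inhibitor of histone acetylation, rose by 0.21 (edgeR adjusted p = 0.0119). With sgEZH2-2 edgeR and DESeq2 called none of the 27, where 8.68% of all genes passed by edgeR. At an unadjusted edgeR p below 0.05 there were 3 (22.6% of all genes).

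Cell cycle genes were read beside the S phase histones. Of 52 S phase genes 6 were higher and 4 lower with sgEZH2-1, against 11.3% and 9.51% of all genes. With sgEZH2-2 0 passed by edgeR or DESeq2, where 8.68% of all genes passed by edgeR. At an unadjusted edgeR p below 0.05 there were 5, all higher (22.6% of all genes in either direction). Between the guides 1 was higher and 10 lower with sgEZH2-1, against 10.4% and 11.5% of all genes. MCM6, a subunit of the replicative helicase, stood at 219 and 203 CPM in controls, 194, 184 and 175 with sgEZH2-1 and 221, 222 and 223 with sgEZH2-2, a difference between the guides of -0.27 (edgeR adjusted p = 0.0053). Of 34 G2/M genes 16 were higher and 0 lower with sgEZH2-1, against 11.3% and 9.51% of all genes. Between the guides 17 were higher and 0 lower with sgEZH2-1, against 10.4% and 11.5% of all genes. ANLN, of the cytokinetic ring, stood at 773 and 785 CPM, at 946, 950 and 931, and at 739, 700 and 717 CPM. With sgEZH2-2 against control, edgeR and DESeq2 called 0 of the 34, where 8.68% of all genes passed by edgeR. At an unadjusted edgeR p below 0.05, 1 was higher and 4 were lower (22.6% of all genes in either direction). The part of the cell cycle genes in the histone values was not tested.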

How the data were processed

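RNA was purified with RNeasy columns and made into libraries with a stranded mRNA kit that selects poly(A), per the labels' protocols. The authors deposited whole-number counts per gene for 8 libraries in 1 table; FastQC, STAR, DESeq and the build hg38 are named per the submitters' processing notes, and for the counting tool, annotation and strand, the setting was not given in the sources used. Columns carry the group but no replicate number, so libraries are numbered in column order.

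Counts were tested with edgeR 4.0.16 (R 4.3.3): TMM scaling, filterByExpr with a minimum count of 10, and the quasi-likelihood F test over 13124 genes with Benjamini-Hochberg adjustment at 0.05. Each guide and the difference between guides were contrasts of a 3-group fit; the pooled guides came from a 2-level fit. The SE given for an edgeR log2 change is its size divided by the square root of the F statistic. The fits were tested on simulated counts. DESeq2 1.42.0, RLE factors, no filter, each library left out and merged copies were alternatives. CPM use TMM-scaled library sizes, and per-kb values use the longest protein-coding transcript of GENCODE 29. All 77 genes were matched to GENCODE 29, 73 by identifier and 4 by an older symbol in RefSeq. Near-identical copies share at least 90% of the stretches of 50 bases of 1 gene of the pair. Promoter windows came from RefSeq (GRCh38.p14). Genes overlapping on the other strand cannot be told apart without the strand setting: 8 of 65 and 6 of 12 members overlap such a gene.

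The members and lists were chosen with earlier results of these data known. Named genes were the tested variants, 1 of which is not reported here, the replication-dependent genes called in any comparison, the 6 with the highest control CPM per kb, the 6 known for polyadenylated transcripts and up to 4 of each list by smallest adjusted p. Of 17 RNAs without a poly(A) tail, none was analysed here.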

Additional observations from a re-analysis of the deposited data

Results flagged for a closer look

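The direct edgeR test between the 2 guides passed for 5 of the 38 tested histone genes, where 21.9% of all genes passed. Of these, 4 are named here. H1-10 was lower with sgEZH2-1 than with sgEZH2-2 by a log2 difference of -0.56 (edgeR adjusted p = 0.0293) and H2AJ by -0.66 (edgeR adjusted p = 0.0189), with no overlap between the guides. The share of all genes without overlap between the guides was not computed. Both calls were lost without sgEZH2-1 library 2, sgEZH2-2 library 2 or sgEZH2-2 library 3. H4C14 differed by -3.28 (edgeR adjusted p = 0.00869) and H4C15 by 1.83 (edgeR adjusted p = 0.00972), 2 near-identical genes whose summed counts overlapped between all groups. With this pair added up before the fit, the guides differed by -0.02 (edgeR adjusted p = 0.943), so the single calls are uncertain. With fewer than 4 libraries in every group, no library was examined as an outlier.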

How the results depend on the processing

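For the 9 calls of single histone genes described, 106 values under alternatives gave 92 that kept direction and call, 14 that lost the call and 0 that changed sign. For H4C14 and H4C15 these values leave out the merged copies, with which the pair passed in no comparison. They also include runs without a library of the group not compared, so the tally is no measure of how firm a call is. Calls of genes from the other lists were not run under these alternatives one by one. The MACROH2A2 calls held in all of them, with log2 changes between 3.24 and 3.57. The number of histone genes called was 4 with sgEZH2-1 and 1 to 4 when a library was left out, the 1 being without control library 1. With sgEZH2-2 it was 2, and 2 to 3 when a library was left out. Pooled it was 1, and 2 by DESeq2, 3 from the 3-group fit, and 1 to 2 when a library was left out. Between guides it was 5, and 3 with copies merged, and 2 to 6 when a library was left out. Over all genes, the pooled count of 572 was 1612 in the 3-group fit, and 163 and 145 without control library 1 or 2. The sgEZH2-1 count of 2726 was 1373 without control library 1 and 1804 without sgEZH2-1 library 2. The sgEZH2-2 count of 1139 was 521 and 579 without control library 1 or 2, and 660 and 688 without sgEZH2-2 library 2 or 3. The count between guides, 2874, was 1691 without sgEZH2-1 library 2, and 1521 and 1572 without sgEZH2-2 library 2 or 3. The summed replication-dependent log2 ratio for sgEZH2-1, 0.07, was 0.014 without H2AC6; the summed variant ratio for sgEZH2-2, 0.08, was 0.11 with raw library totals. The cause was not tested. No paired analysis was possible because the columns carry no replicate number.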
